A study of Mus musculus with 16 samples.

Results

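Genomic imprinting silences one parental copy of a gene, so that transcripts come from the copy inherited from the other parent. Many paternally expressed imprinted genes are strongly active in neurons and in the developing brain, and the parental mark is DNA methylation laid down in the germ line and protected afterwards by zinc finger proteins that recruit TRIM28. Necdin, the product of Ndn, is a MAGE family protein known from postmitotic neurons, and Ndn lies with Snrpn in the chromosome 7 region that corresponds to the Prader-Willi region.

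Here 10 paternally expressed imprinted genes, Ndn, Snrpn, Peg3, Usp29, Zrsr1, Nnat, Impact, Plagl1, Nap1l5 and Sgce, were followed in bulk RNA sequencing of microglia. They are 10 of 57010 genes in the count table, taken by symbol, and all 10 were among the 18227 genes that passed the filter on low counts. The list was selected on the Ndn level, which had been seen to be higher in the knock-in libraries, so the Ndn difference between genotypes is given as a description without a test. The table counts reads from both parental copies together, and allelic origin was not analysed here.

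Microglia were taken from the olfactory bulb (OB) of 2 month old mice by magnetic selection on beads against CD11b, a surface protein of myeloid cells. WT mice were C57BL/6J. App NL-G-F mice, labelled KI, carry a knock-in of the App gene with 3 familial Alzheimer mutations on the same background, in the gene's own locus and without a transgene promoter. There were 4 libraries each of WT females, KI females, WT males and KI males, the labels name no treatment, and the total count per library ran from 9052932 to 18117286. Nothing in the labels names the mouse behind a library. The study's reporting form mentions technical replicates for RNA sequencing, so whether each library is a separate mouse is not known here. The p-values, SD and SE therefore measure the spread between libraries.

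The libraries carried the marks of the labelled cell. The 12 homeostatic microglia markers summed to between 21260 and 25240 CPM (counts scaled to a common library size), with Csf1r at 5660 CPM on average. They also carried transcripts of other OB cells, since 15 neuronal markers summed to between 572.7 and 891.9 CPM in WT and between 702.6 and 1191 CPM in KI, with Map2 the most abundant at 192 CPM. None of the neuronal markers was at 0 in all libraries, and in such bulk samples fewer cells of a type cannot be told apart from less RNA per cell.

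Imprinted promoters are marked at CpG dinucleotides, and 4 stretches upstream of 5 genes are shown. They are those of Ndn, of the genes Usp29, Peg3 and Nap1l5 with an FDR below 0.1 between genotypes, and of Snrpn, which shares the imprinted domain of Ndn. Each run was read from GRCm39, 5′ to 3′, in lower case with every CpG in capitals, and overlaps no annotated UTR. For Ndn it is the 250 bases before the main transcript of GENCODE vM39 (chr7:61996067-61996316, plus strand), which lie in an intron of an Ndn transcript that starts farther upstream. For Snrpn it is the 250 bases before the last of its 4 RefSeq starts (chr7:59654948-59655197, minus strand), the one nearest the body of the gene and inside its GENCODE model. Peg3 and Usp29 are read in opposite directions from starts 109 bases apart, and the 108 bases between them are given once, on the strand of Usp29 (chr7:6733469-6733576, plus strand). For Nap1l5 it is the 250 bases before its RefSeq start (chr6:58884112-58884361, minus strand), of which 115 fall in an exon of another annotated gene.
Ndn: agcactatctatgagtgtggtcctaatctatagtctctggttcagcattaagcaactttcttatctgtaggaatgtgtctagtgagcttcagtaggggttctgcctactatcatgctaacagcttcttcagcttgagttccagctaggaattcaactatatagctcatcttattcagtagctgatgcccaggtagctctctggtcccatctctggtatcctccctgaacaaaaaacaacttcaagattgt
Snrpn: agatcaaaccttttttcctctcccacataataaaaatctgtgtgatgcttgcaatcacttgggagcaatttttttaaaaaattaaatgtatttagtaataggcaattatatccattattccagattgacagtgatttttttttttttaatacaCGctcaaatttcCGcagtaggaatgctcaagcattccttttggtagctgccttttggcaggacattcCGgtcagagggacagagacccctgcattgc
Peg3 and Usp29: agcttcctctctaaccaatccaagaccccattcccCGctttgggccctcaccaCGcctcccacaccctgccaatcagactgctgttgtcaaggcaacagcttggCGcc
Nap1l5: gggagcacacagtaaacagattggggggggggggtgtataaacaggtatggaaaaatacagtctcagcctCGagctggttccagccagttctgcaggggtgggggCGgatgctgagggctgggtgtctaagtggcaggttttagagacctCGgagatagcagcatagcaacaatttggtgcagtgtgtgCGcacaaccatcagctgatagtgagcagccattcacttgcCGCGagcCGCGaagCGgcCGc

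The printed runs differ in length and in the kind of start, so CpG were compared between genes in RefSeq's promoter windows of 300 bases, from 250 before to 50 after a start. Such windows were found for 8 of the 10 genes, without Impact and Sgce. RefSeq's table is on GRCm38.p6, and each window was placed on GRCm39 by an exact match found at 1 place on the chromosome. The RefSeq window of Ndn, at chr7:61997775-61998074, lies downstream of the printed run, inside the first exon of the main GENCODE transcript, and held 11 CpG, whereas the printed Ndn run held 0. The count was 7 for this Snrpn start, 13 for Peg3 and 17 each for Usp29 and Nap1l5. In the 250 bases before the RefSeq start alone there were 5 CpG at Ndn, 3 at Snrpn, 8 at Peg3, 14 at Usp29 and 10 at Nap1l5. Protein-coding promoters of 300 bases had a median of 13 CpG over 21262 windows. Over the same length Plagl1 had 26 CpG, Nnat 17 and Zrsr1 10. The Peg3 window overlapped that of Usp29, on the opposite strand, by 263 bases.

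The letters TGCCGC, the core bound by the imprint protector ZFP57 when methylated, were searched on both strands of these windows of 300 bases. They occurred once in each of the windows of Snrpn (this start), Nnat and Plagl1, and there were 2 matches in that of Nap1l5. No match was found in the windows of Ndn, Peg3, Usp29 and Zrsr1, and 14.1% of all protein-coding promoters held 1 or more. The letters GCCATNTT, a form of the YY1 motif, occurred in none of the windows of these 8 genes and in 6.4% of protein-coding promoters, also on both strands. These are matches of letters in these windows and say nothing of binding.

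Ndn (ENSMUSG00000033585, GRCm39 chr7:61995473-62000010, plus strand) was among the least abundant of these genes. WT females held 27, 30, 28 and 17 reads and WT males 26, 28, 13 and 8. KI females held 61, 47, 51 and 60 reads and KI males 46, 46, 52 and 42. Each KI library thus had more Ndn reads than every WT library, with 30 the highest in WT and 42 the lowest in KI.

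Scaled to library size, Ndn stood at 1.69, 3.47, 2.00 and 1.45 CPM in WT females and 2.23, 1.57, 1.46 and 0.813 CPM in WT males. It stood at 4.08, 3.51, 4.39 and 4.49 CPM in KI females and 3.91, 3.81, 4.37 and 2.95 CPM in KI males. On this scale the genotypes overlapped through WT female replicate 2, the shallowest library, and KI male replicate 4. The other 7 WT libraries lay below all KI libraries, and 7 of 8 KI libraries lay above all of WT.

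The mean was 1.835 ± 0.781 CPM in WT and 3.938 ± 0.52 CPM in KI (SD, n = 8 each), a ratio of 2.15. In the edgeR fit with sex as a term the log2 fold change was 1.12 with a standard error of 0.19. Within females it was 0.97 (SE 0.264) and within males 1.28 (SE 0.277). Leaving out 1 library at a time gave 1.03 to 1.27, the highest without WT female replicate 2. The spread relative to the mean was 42.6% in WT and 13.2% in KI, at counts where sampling of reads alone adds visible noise.

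**Figure D1:**
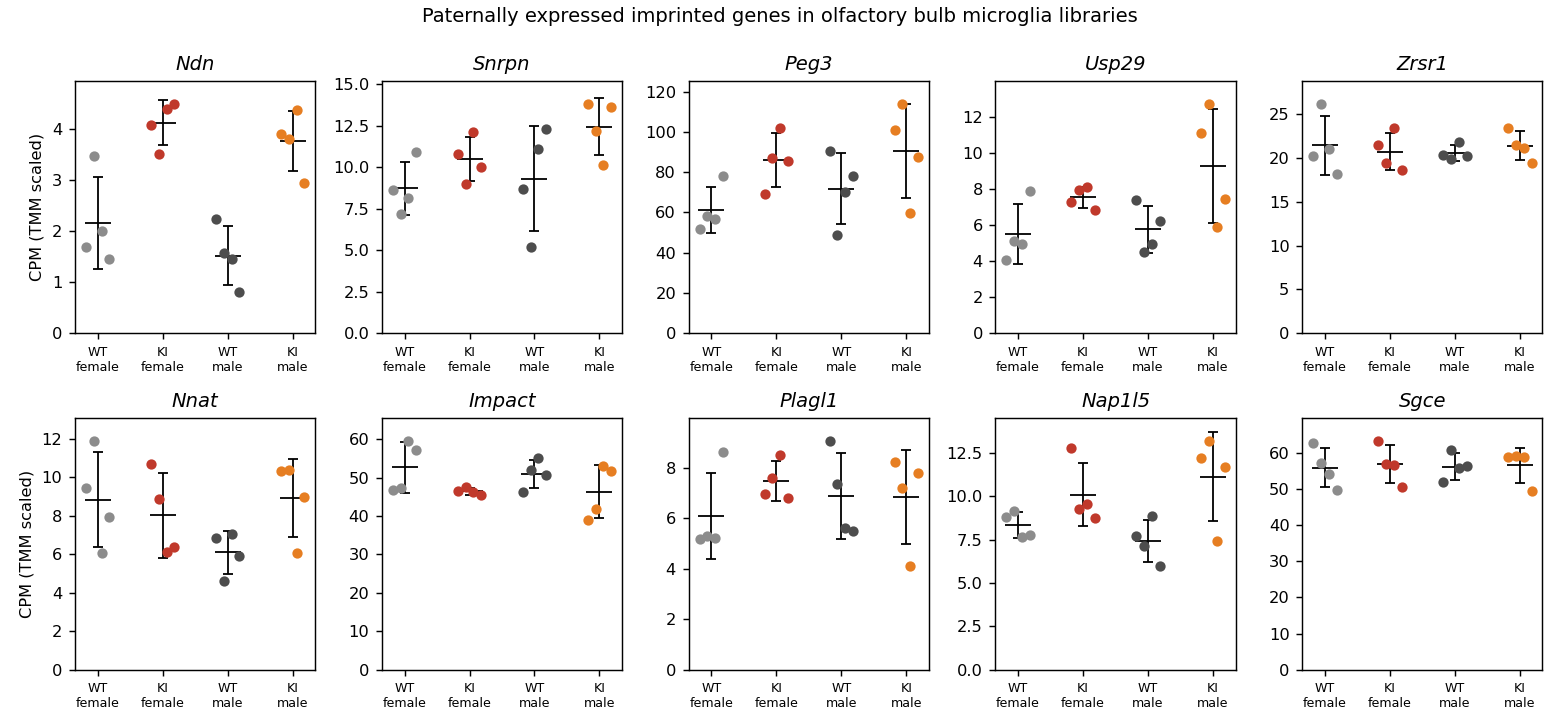
Level of the 10 genes in each of the 16 libraries as TMM scaled CPM (y axis, from 0), with 1 point per library and 4 libraries in each of the 4 groups on the x axis; the dash and bars are the mean and SD of a group. Ndn ran from 0.813 to 3.47 CPM in WT and from 2.95 to 4.49 CPM in KI, while Zrsr1 and Sgce lay at like levels in all groups.

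Of the 9 genes other than Ndn, Usp29 passed the rule used by the study, an FDR below 0.1 with an absolute log2 fold change above 0.5. Usp29 encodes a ubiquitin-specific protease and shares its start region with Peg3. It was at 4.07, 5.09, 4.93 and 7.86 CPM in WT females and 7.37, 4.50, 4.93 and 6.20 CPM in WT males. In KI females it was at 7.29, 7.91, 8.09 and 6.81 CPM and in KI males at 11.1, 12.7, 5.88 and 7.45 CPM. The KI libraries all lay above the WT median of 5.01 CPM, and 4 of them lay above the highest WT library.

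Usp29 rose from 5.616 ± 1.38 to 8.404 ± 2.31 CPM (SD, n = 8 each). The log2 fold change was 0.58 (SE 0.166, edgeR FDR 0.0344). Across all tested genes 8.64% were called by this rule, 4.33% higher and 4.3% lower. The call was kept in 23 of 24 fits and was lost without KI male replicate 2, where the log2 fold change was 0.49. It was the 1 gene of these 9 to meet the rule.

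Peg3, a zinc finger protein gene known for roles in maternal behaviour and growth, and Nap1l5, a gene of the nucleosome assembly protein family, passed the FDR but stayed under the fold threshold. Peg3 went from 66.54 ± 14.9 to 88.35 ± 17.8 CPM, a log2 fold change of 0.42 (SE 0.134, edgeR FDR 0.0588). Its 8 WT values ran from 48.9 to 90.6 CPM with a median of 64.2, and its KI values from 59.6 to 114 CPM with a median of 87.5. The ranges overlapped widely, and KI male replicate 3 held the lowest KI value. The Peg3 FDR was below 0.1 in 17 of 24 fits and it lost that call without any of 7 libraries, with 0.139 without KI male replicate 2 the highest, and passed the fold threshold too without KI male replicate 3.

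Nap1l5 went from 7.883 ± 1.04 to 10.6 ± 2.13 CPM, a log2 fold change of 0.43 (SE 0.123, edgeR FDR 0.0345). WT females were at 8.82, 9.13, 7.64 and 7.78 CPM and WT males at 7.71, 7.14, 8.85 and 5.99 CPM. KI females were at 12.8, 9.25, 9.56 and 8.76 CPM and KI males at 12.2, 13.2, 7.39 and 11.7 CPM. Of the KI libraries 6 lay above the highest WT value. Its FDR was below 0.1 in all 24 fits, and it also passed the fold threshold without KI male replicate 3. By FDR alone 14.8% of all tested genes were called and 6.95% were higher, against 3 of the 9 genes other than Ndn, all higher in KI.

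Snrpn, which encodes the spliceosomal SmN protein, had a mean of 9.011 ± 2.33 CPM in WT against 11.44 ± 1.76 CPM in KI. Its log2 fold change was 0.35 (SE 0.143, edgeR FDR 0.133) and did not pass, although all 8 KI libraries exceeded the WT median of 8.64 CPM. Its FDR was below 0.1 in 7 of 24 fits and 0.0754 with a replicate block. Snurf overlaps Snrpn on the same strand and shares all 216 of its exonic bases with it. No read was assigned to Snurf in any library, which sets no limit on its level, since how reads shared by the pair were assigned is not given in the sources used here. The Snrpn value may include both.

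None of the remaining 5 genes passed the test. Nnat, the neuronatin gene, had a log2 fold change of 0.21 (SE 0.177, edgeR FDR 0.516). Plagl1, a zinc finger regulator of growth, had 0.14 (SE 0.156, edgeR FDR 0.651). Zrsr1, a relative of the U2AF splicing factor, was at 21.02 CPM in WT and 21.09 in KI, and Sgce, epsilon-sarcoglycan, at 55.99 and 56.64 CPM. Both had log2 fold changes of 0.02 or less with edgeR FDR of 0.971 and 0.919. Impact, a regulator of GCN2 signalling, was the member with a lower mean in KI, 46.38 against 51.83 CPM (log2 fold change -0.16, SE 0.0685, edgeR FDR 0.157). Its FDR was below 0.1 in 3 of 24 fits and 0.0774 with a replicate block, so that by FDR alone that fit held 5 of the 9 genes, 4 higher and 1 lower, against 15% of all genes.

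Without Ndn, on which the list was chosen, 8 of the 9 log2 fold changes were above 0 and 1 was below, with a median of 0.21. Of these 8, Zrsr1 and Sgce lay near 0 and took either sign when 1 library was left out. The median over all 18227 tested genes was 0.00, and 49.6% of them were above 0. The values of Zrsr1, Sgce, Impact and Plagl1 lay between -0.16 and 0.14.

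**Figure D2:**
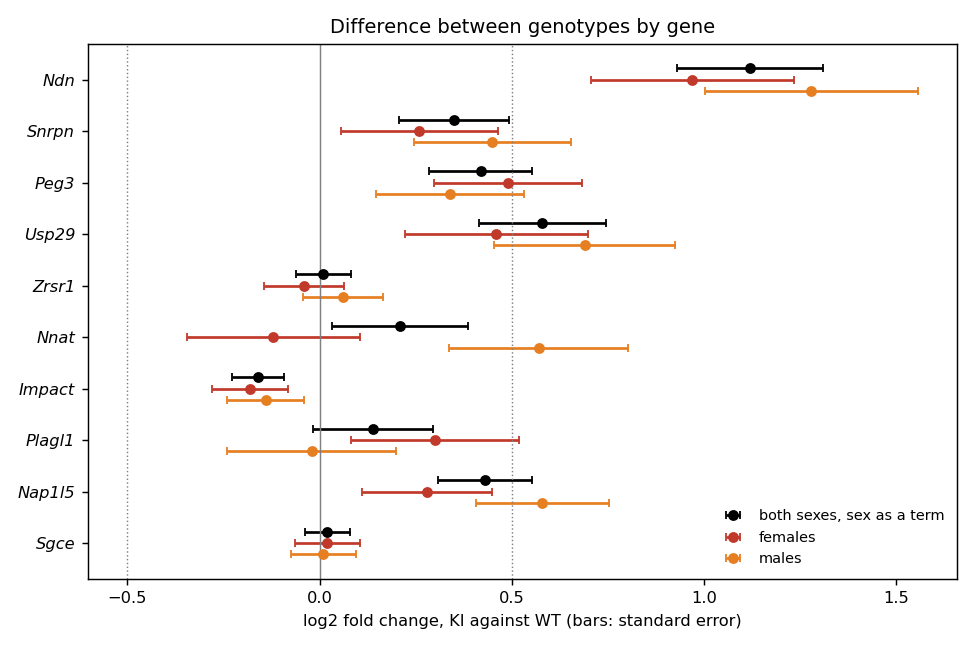
Log2 fold change of KI against WT (x axis) for each gene (y axis), fitted over both sexes and within females and within males; bars are standard errors and dotted lines mark 0.5 in either direction. Ndn lay at 1.12 over both sexes, at 0.97 in females and at 1.28 in males, and Nnat had opposite signs, -0.12 in females and 0.57 in males.

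None of these genes passed the test between the sexes. Between females and males 0 of the 10 were called, with an edgeR FDR of 0.815 for Ndn (log2 fold change 0.26, SE 0.188) and 0 at an unadjusted p below 0.05. Across all genes 0.0604% were called between sexes. For the difference of the genotype effect between the sexes 0 of 10 were called as well, against 0.0274% of all genes. Nnat had an unadjusted p of 0.0479 for it (log2 difference -0.69, edgeR FDR 0.831), and Ndn an FDR of 0.987 (-0.31, SE 0.383). DESeq2 and limma voom also called 0 in both comparisons. Within females and within males none of the 9 genes other than Ndn had an FDR below 0.1, as 9.42% and 0.269% of all genes did.

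To set levels of different genes side by side, CPM was divided by the exonic length of the gene model in kb. In WT the order was Impact at 5.99, Peg3 at 4.87, Nap1l5 at 4.27, Sgce at 4.10, Zrsr1 at 3.88, Nnat at 3.59, Snrpn at 0.959, Plagl1 at 0.758, Ndn at 0.486 and Usp29 at 0.311 CPM per kb. Neighbours in this order overlapped in range over the 8 WT libraries, with the exception of Nnat and Snrpn, which were apart in all 8. The 4 lowest per kb were thus Snrpn, Plagl1, Ndn and Usp29.

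Differences between libraries of the same group were examined next. Each gene and each of 10 cell type scores, the mean log2 CPM of a marker list, was set to deviations from its own group mean, and the 100 pairs were correlated over the 16 libraries. By permutation within groups 8 pairs had an adjusted p below 0.1, of which 7 were positive, and 14 had an unadjusted p below 0.05. Leaving out 1 library at a time left 3 to 10 such pairs. All points share the scaling of their library.

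Peg3 moved with the OB inhibitory neuron score (10 markers, Gad1 the most abundant at 109 CPM) at Pearson r = 0.95 (permutation p 4e-05, adjusted p 0.004) and Spearman rho = 0.93 (p 3e-05, adjusted p 0.003). It was 0.89 without the 2 libraries farthest from the median score and 0.93 to 0.97 without any 1 library. Usp29 moved with the same score at r = 0.83 (permutation p 0.00025, adjusted p 0.0125) and rho = 0.86 (p 0.00058, adjusted p 0.029), and r was 0.76 without the 2 farthest. Snrpn moved with the pan-neuronal score at r = 0.81 (permutation p 0.00065, adjusted p 0.0217) and rho = 0.82 (p 0.00101, adjusted p 0.0337), and r was 0.71 without the 2 farthest. These 3 pairs kept an adjusted p below 0.1 without any 1 library.

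Other pairs were less secure. Peg3 was positively correlated with the pan-neuronal score (r = 0.81, permutation p 0.00355, adjusted p 0.0587; rho = 0.68, p 0.012, adjusted p 0.2) and negatively with the homeostatic microglia score (r = -0.77, permutation p 0.00411, adjusted p 0.0587; rho = -0.65, p 0.021, adjusted p 0.301). Without the 2 farthest libraries r was 0.61 and -0.65. Nnat followed the astrocyte score (r = 0.79, permutation p 0.00382, adjusted p 0.0587; rho = 0.73, p 0.00909, adjusted p 0.182) and r was 0.83 without the 2 farthest. Snrpn and the OB inhibitory neuron score gave r = 0.72 (permutation p 0.00788, adjusted p 0.0985) and rho = 0.54 (p 0.0574, adjusted p 0.402), and the relation rested in part on 2 libraries, since r was 0.49 without them. Leaving out 1 library at a time, the adjusted p was below 0.1 in 11 of 16 fits for Peg3 and the pan-neuronal score, in 10 for Peg3 and homeostatic microglia, in 10 for Nnat and astrocytes and in 4 for Snrpn.

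Sgce was the member that followed the homeostatic microglia score, at r = 0.78 (permutation p 0.00267, adjusted p 0.0587), rho = 0.77 (p 0.00235, adjusted p 0.0587) and 0.77 without the 2 farthest libraries. Its adjusted p was below 0.1 in 12 of the 16 fits that left out 1 library. Impact and Zrsr1 followed none of the 10 scores at an adjusted p below 0.1, and neither did Plagl1 and Nap1l5. Their largest absolute r was 0.60.

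No correlation of Ndn with a cell type score passed the test. Its r was -0.29 with the pan-neuronal score (permutation p 0.319, adjusted p 0.725; rho = -0.32, p 0.266, adjusted p 0.725) and -0.21 with the OB inhibitory neuron score (permutation p 0.493, adjusted p 0.882; rho = -0.16, p 0.605, adjusted p 0.948). Without any 1 library these ran from -0.36 to -0.18 and from -0.41 to -0.09. The highest of its values was r = 0.49 with the border macrophage score (permutation p 0.136, adjusted p 0.468; rho = 0.49, p 0.101, adjusted p 0.439), and r was 0.36 without the 2 farthest. Low counts widen the scatter of Ndn, so a weaker relation may not be detectable at this depth.

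**Figure D3:**
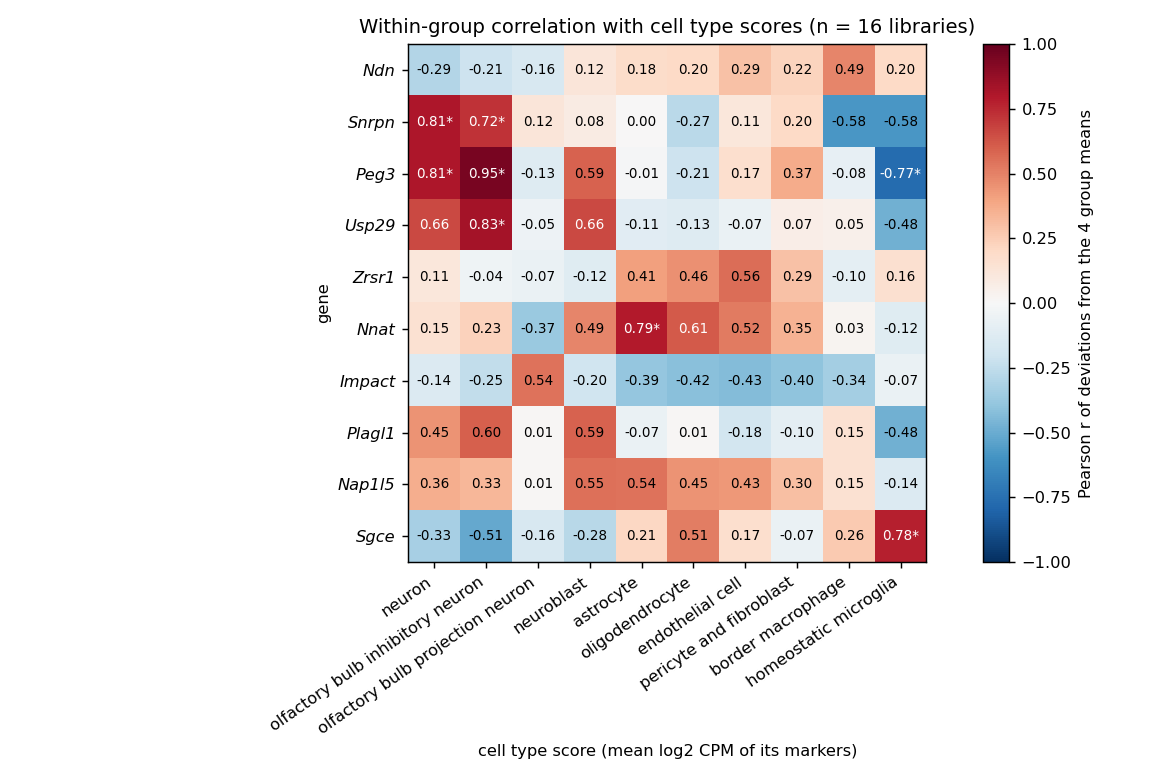
Pearson r between each gene (rows) and each cell type score (columns) over 16 libraries, after subtracting the mean of each of the 4 groups; colour runs from -1 to 1 and a star marks an adjusted permutation p below 0.1. Peg3, Usp29 and Snrpn were darkest under the neuronal scores (0.95, 0.83 and 0.81), whereas Ndn was at -0.29 and -0.21 there.

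Several of the scores differed between the genotypes themselves. The pan-neuronal score was 0.28 higher in KI (log2, exact permutation p 0.0143 over 4900 splits within sex, adjusted p 0.0477) and the OB inhibitory neuron score 0.45 higher (exact permutation p 0.00367, adjusted p 0.0184). The neuroblast score was 0.28 higher (exact permutation p 0.00204, adjusted p 0.0184) and the oligodendrocyte score 0.38 higher (exact permutation p 0.0204, adjusted p 0.051). The summed OB inhibitory neuron markers ran from 194.4 to 319.5 CPM in WT and from 267.3 to 445.6 CPM in KI, and none of the 10 was at 0 in all libraries. The OB projection neuron score differed by 0.05 (exact permutation p 0.765), with 3 of its 7 markers above 0 and a median log2 fold change of -0.06. The homeostatic microglia score differed by 0.00 (exact permutation p 0.99), the border macrophage score by 0.08 (exact permutation p 0.54) and the astrocyte score by -0.20 (exact permutation p 0.256). The part of these markers in the higher levels of Usp29, Peg3 and Nap1l5 was not tested.

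Other imprinted genes were measured in the same libraries. Of 24 other paternally expressed genes on a fixed list, 20 were in the table and 13 were tested. Among these 3 were called higher and 0 lower, 23.1% against 8.64% of all genes, with a median log2 fold change of 0.23. Kcnq1ot1, a long antisense RNA of the Kcnq1 domain, rose from 94.28 ± 26.9 to 153.6 ± 38.7 CPM (log2 fold change 0.72, SE 0.165, edgeR FDR 0.0102). Rasgrf1, a neuronal Ras exchange factor gene, rose from 44.31 to 64.83 CPM (0.57, edgeR FDR 0.0492), and Airn, the antisense RNA of Igf2r, from 4.777 to 8.48 CPM (0.86, edgeR FDR 0.0532). Kcnq1ot1 kept its call in all 16 fits that left out 1 library, Rasgrf1 in 12 and Airn in 9.

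The 3 of this list with the highest level per exonic kb were Peg10, Peg13 and Mcts2. Their log2 fold changes were -0.09, -0.03 and -0.09 with edgeR FDR of 0.529, 0.849 and 0.748. Peg10 starts 99 bases from Sgce and is transcribed away from it, and neither passed the test.

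Of 25 maternally expressed genes 20 were tested, 4 were called higher and 0 lower, 20% against 8.64% of all genes, with a median of 0.12. They were Meg3, Rian and Mirg, noncoding RNAs of 1 chromosome 12 domain, and Kcnk9, a potassium channel gene. Meg3 stood at 195, 192, 249 and 408 CPM in WT females and at 532, 258, 453 and 418 CPM in WT males. It stood at 421, 468, 660 and 506 CPM in KI females and at 701, 793, 302 and 522 CPM in KI males. The genotypes overlapped, and KI male replicate 3 was the lowest KI library.

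Meg3 rose with a log2 fold change of 0.73 (SE 0.202, edgeR FDR 0.0299) and Kcnk9 with 0.89 (SE 0.225, edgeR FDR 0.0186), and both kept the call without any 1 library. Rian had 0.77 (edgeR FDR 0.0467) and Mirg 0.72 (edgeR FDR 0.0693), the latter called in 8 of 16 such fits. Gnas, Meg3 and Ppp1r9a had the highest levels per kb of the list, and Gnas and Ppp1r9a were at -0.05 and -0.02 (edgeR FDR 0.436 and 0.854). Ube3a, which is imprinted in neurons, was at 135.2 CPM in WT and 137.7 CPM in KI.

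**Figure D4:**
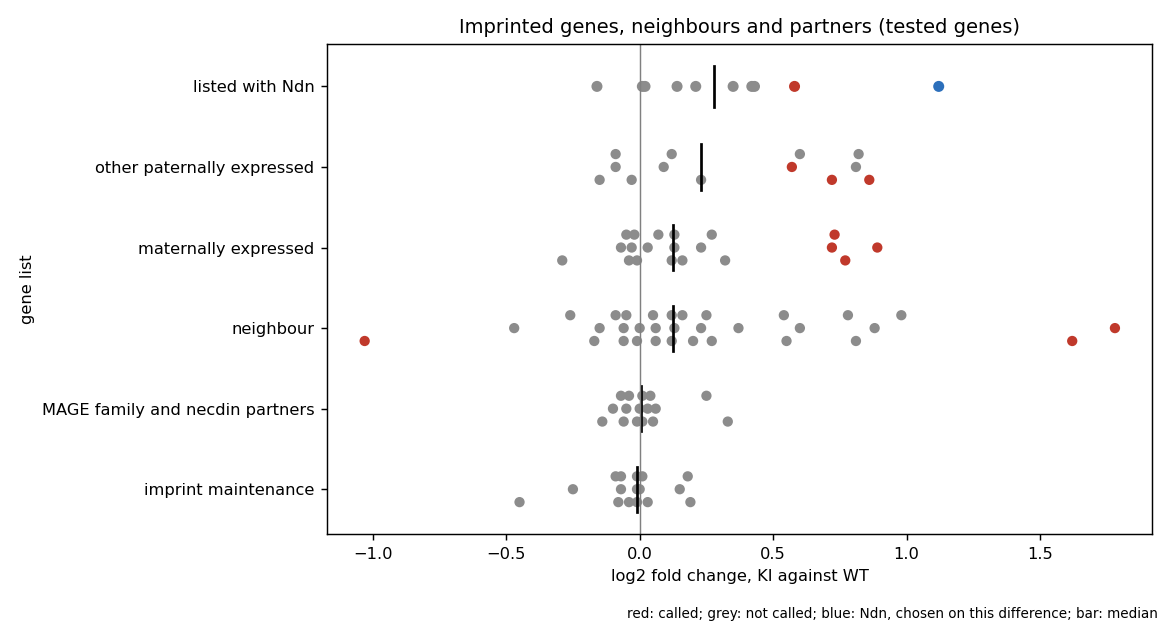
Log2 fold change of KI against WT (x axis) for every tested gene of the 10 members and of 5 gene lists (y axis); red marks called genes, blue marks Ndn, grey the others, and a black bar the median. The called paternally and maternally expressed genes lay between 0.57 and 0.89, to the right of most of their lists, and the neighbour list held 2 called higher and 1 lower.

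In a further step the 7 called imprinted genes outside the members were also set against the 3 neuronal scores, a comparison of 21 pairs added after their values had been seen. In the 14 pairs with the pan-neuronal and OB inhibitory neuron scores, Pearson r within groups lay between 0.78 and 0.96 and Spearman rho between 0.75 and 0.96. The largest permutation p of these was 0.00317 and the largest adjusted p 0.00475, and r was 0.66 to 0.93 without the 2 farthest libraries. With the OB projection neuron score r lay between -0.02 and 0.23 and the smallest permutation p was 0.437. Meg3 with the OB inhibitory neuron score gave r = 0.96 (permutation p 3e-05) and Kcnq1ot1 with the pan-neuronal score r = 0.94 (permutation p 2e-05). The value of Ndn with these 2 scores was -0.21 and -0.29. The uncalled genes of these lists and called genes that are not imprinted were not compared in this way. How usual such values are among called genes was therefore not tested.

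Of the genes that overlap or lie within 100 kb of a member 74 were in the table, 32 were tested and 3 were called, 2 higher and 1 lower, 9.38% with a median of 0.13. That share was close to the 8.64% of all genes, but the count ran from 1 to 8 without 1 library and was 5 with limma voom. The 2 called higher were Gm44862 and Gm44863, gene models still to be experimentally supported (biotype TEC), inside Usp29 on its own strand, with log2 fold changes of 1.62 (edgeR FDR 0.0347) and 1.78 (edgeR FDR 0.0219). Their means were below 1 CPM, and leaving out 1 library at a time kept the call of Gm44862 in 16 of 16 fits and that of Gm44863 in 8. The highest levels per kb were those of Snord116l12, Cct4 and Ltv1, none of them called, at log2 fold changes of 0.37, -0.06 and -0.15. The gene called lower was ENSMUSG00000120882, which lies near Nnat within Blcap on the opposite strand to it, at -1.03 (edgeR FDR 0.0449) and also below 1 CPM, called in 8 of 16 such fits. Zrsr1, Nnat and Nap1l5 each lie within a host gene on the opposite strand, Commd1, Blcap and Herc3, none of which was called. Ndn likewise lies within the noncoding RNA Gm32061 on the opposite strand, which shares 0 exonic bases with it, had 1 read over all libraries and was not tested. Without a stated strand setting, reads of such pairs cannot be told apart with certainty.

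The surroundings of Ndn were then followed over 3 Mb to either side, a window chosen after the values were known. Besides Ndn 48 genes were tested there and 11 were called, 9 higher and 2 lower, 22.9% against 8.64% of all genes. Between Snrpn and Ndn 7 genes were tested, all 7 were above 0 (0.42 to 0.95) and 5 were called. These were the noncoding RNAs ENSMUSG00000120237, A230006K03Rik, A230057D06Rik, A330076H08Rik and Gm9801, of which A230006K03Rik went from 5.31 to 8.95 CPM (log2 fold change 0.77, SE 0.177, edgeR FDR 0.0101) and A230057D06Rik from 3.91 to 7.14 CPM (0.89, SE 0.277, edgeR FDR 0.0514). A230006K03Rik kept its call without any 1 library, as did ENSMUSG00000120237, whereas A230057D06Rik kept it in 12 of 16 such fits, A330076H08Rik in 9 and Gm9801 in 5.

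Beyond Snrpn, 22 genes were tested to the edge of the window and all were above 0, with a median of 0.52, but 3 were called, each of them in 7 or fewer of 16 fits without 1 library. Most of them are copies of the snoRNA clusters within the transcript Snhg14, of which 19 were tested and 2 called. Reads of near-identical snoRNA copies are uncertain in their assignment, and the genes of this stretch are not independent of each other. Snhg14 itself went from 70.0 to 105 CPM (log2 fold change 0.60, SE 0.247, edgeR FDR 0.138) and did not pass.

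On the other side of Ndn, 18 genes had a median of 0.04, with 1 called higher and 2 lower. Chrna7, the gene of a nicotinic receptor subunit, was the 1 called higher (log2 fold change 0.74, edgeR FDR 0.0497; called in 15 of 16 such fits). Lower were the noncoding RNA ENSMUSG00000121201 (-1.48, SE 0.246, edgeR FDR 0.00113), from 4.54 to 1.62 CPM, and the gene model Gm45212 (-0.72, edgeR FDR 0.0783; called in 6 of 16). Mkrn3, a paternally expressed neighbour, had 0.81 but did not pass (SE 0.337, edgeR FDR 0.145). Magel2, the MAGE gene 26748 bases from Ndn, had 27 reads over all libraries and was not tested. The count of called genes in the window was sensitive to single libraries, running from 4 (without WT female replicate 1, KI male replicate 1 or KI male replicate 2) to 18 (without KI male replicate 3), and it moved by more than 1.5 times without 9 of the 16.

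**Figure D5:**
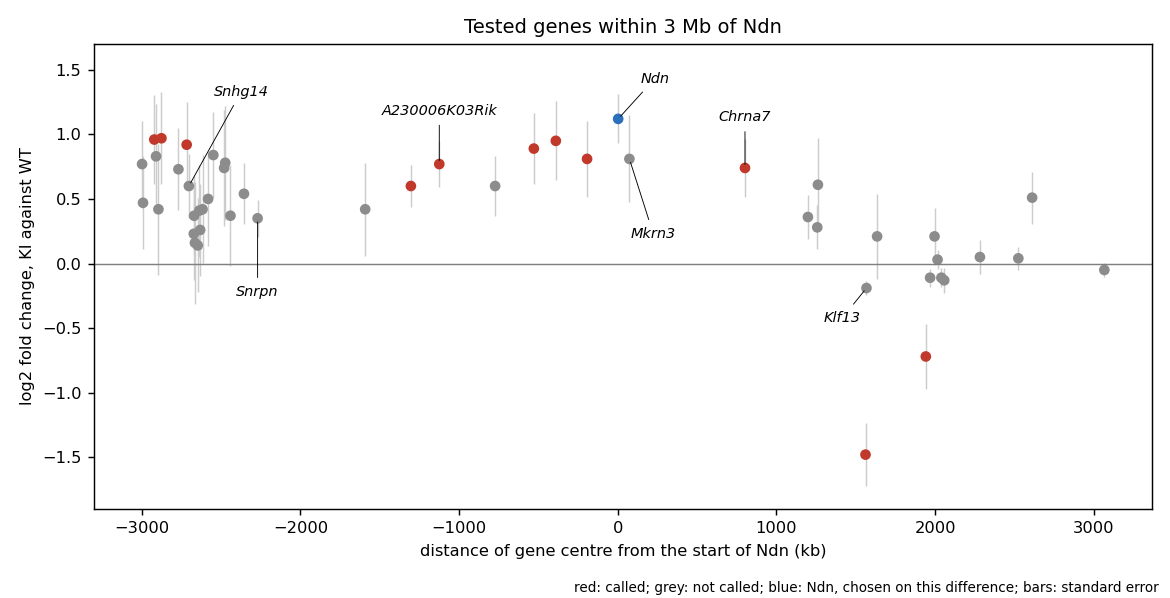
Log2 fold change of KI against WT (y axis, bars are standard errors) for the 49 tested genes within 3 Mb of Ndn, by the distance in kb of the gene centre from the start of Ndn (x axis); red marks called genes, grey the others, and Ndn is blue. All genes on the side of Snrpn lay above 0, and those on the other side scattered around 0 with a median of 0.04.

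The gene families around necdin and around the imprint itself were also measured. Of 16 tested MAGE family genes and necdin partners 0 were called by edgeR, where 8.64% of all genes were, with 1 at an unadjusted p below 0.05 (Trp53, log2 fold change -0.14, edgeR FDR 0.103) and a median of 0.00. DESeq2 and limma voom called 0 too. The most abundant per kb were Eid1, an inhibitor of EP300, Hif1a and Bmi1, at log2 fold changes of 0.01, 0.01 and -0.01. Maged1, another MAGE gene, was at 81.17 CPM in WT and 81.21 CPM in KI.

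Of 16 tested imprint maintenance genes 0 were called by edgeR, DESeq2 or limma voom, beside the same 8.64% by edgeR, with 1 at an unadjusted p below 0.05 and a median of -0.01. That gene was Zfp445, an imprint protector, at 0.19 (edgeR FDR 0.157). Trim28, the corepressor recruited by ZFP57, was at 106.8 CPM in WT and 106.3 CPM in KI, and Arid4a and Ctcf had log2 fold changes of -0.09 and 0.03. Without KI female replicate 2 the count was 1, Uhrf1.

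By a rule of likeness, the 10 genes outside the members whose deviations within groups were most like those of Ndn were Mir7688 (r = 0.86), Sap30bp (0.84), Acot13 (0.82), Ehf, Spag7, Gm26881, Fut4 and Ncoa4 (0.81 each) and Thap4 and Phf5a (0.80 each), over 16 libraries and given without a test. Of these, Mir7688 alone was called between genotypes, at a log2 fold change of 1.11 (edgeR FDR 0.0135), where 8.64% of all genes were called. The others had log2 fold changes from -0.2 (Gm26881) to 0.31 (Ehf), with edgeR FDR of 0.34 or more. Among the members, the highest r with Ndn was that of Zrsr1 (0.59) and the lowest that of Snrpn (-0.52), which belongs to the same imprinted domain.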

How the data were processed

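RNA from bead-selected OB microglia was made into rRNA-depleted, stranded total RNA libraries and sequenced in pairs. Per the labels and the study's methods, the authors aligned reads with STAR 2.7.8 to GRCm39, to which human App had been added, used GENCODE vM32 for annotation and deposited raw read counts per gene. The strand column of the counts used is not given in the sources used here. Gene positions and exonic lengths come from GENCODE vM39, which matched 96.84% of the table's genes; Zrsr1, which has no entry there by name, took the gene model at its RefSeq position.

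A minimum of 5 counts in 8 or more libraries left 18227 of 57010 genes, which were tested with edgeR 4.0.16 (quasi-likelihood, TMM scaling, sex as a term, Benjamini-Hochberg adjustment over all tested genes), with DESeq2 1.42.0 and limma 3.58.1 as alternatives in R 4.3.3. A gene was called at an FDR below 0.1 with an absolute log2 fold change above 0.5. CPM are TMM scaled, and log values used a prior count of 2. Correlations used 1e+05 permutations within groups. The fits were tested on simulated data with known changes. For genotype the rule recovered 48% of 50 genes with a true log2 fold change of 0.5 and 86% of 50 at 1. Of the simulated genotype calls 3.55% were false. For the difference of the genotype effect between sexes it recovered 58% at a true log2 difference of 1. No pair of libraries was identical. Named genes are all members, the called genes and the 3 most abundant per kb of each list, and the 10 most like Ndn; Ube3a, Snhg14, Mkrn3, Magel2, Snurf, Maged1, Uhrf1, host genes and the genes around Ndn were singled out after their values were seen. Members and lists were chosen with earlier results of these data known.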

Additional observations from a re-analysis of the deposited data

Results flagged for a closer look

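Of 124 sets of 4 libraries checked (a gene or a score in 1 group), 6 had a library set far apart by Dixon's ratio, its gap to the nearest library over the range of the set, above the 95% critical value for 4 values; chance gives about 1 in 20, or 6.2 sets. WT female replicate 4 held 8.63 CPM of Plagl1 against 5.19 to 5.32 in the other WT females (ratio 0.963). KI male replicate 4 held 49.3 CPM of Sgce against 58.7 to 59.1 in the other KI males (ratio 0.961). WT male replicate 2 was low for Rasgrf1, 29.9 CPM against 56.7 to 58.8 (ratio 0.927), for Rian, 20.2 CPM against 46.8 to 48.7 (ratio 0.937), and for the astrocyte score, 4.99 against 5.24 to 5.29 (ratio 0.831). KI male replicate 3 was low for Rasgrf1, 44.2 CPM against 70.8 CPM or more in the others (ratio 0.864). Both of these libraries were also the lowest of their groups in the summed neuronal markers, at 572.7 and 702.6 CPM. Without WT male replicate 2 there were 5 called genes around Ndn and 3 correlated pairs, and without KI male replicate 3 there were 18 and 4, against 11 and 8 over all libraries.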

How the results depend on the processing

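Alternatives were RLE scaling, DESeq2, limma voom, no filter, a replicate block, the early against the late library numbers as a term, no sex term, FDR alone and leaving out each library in turn. Over these the log2 fold change of Ndn was 1.03 to 1.27, and the median of all genes stayed between 0.00 and 0.01. The median of all 10 members, with Ndn on which the list was chosen, was 0.28 in the main fit. It was 0.21 to 0.33 over the alternatives. The median of 0.21 over the 9 genes without Ndn was not followed over these alternatives. FDR alone called 2692 genes in place of 1574 and 5 neighbour genes in place of 3. Of the members other than Ndn it called Peg3 and Nap1l5 beside Usp29. Limma voom called 5 other paternally expressed and 5 neighbour genes, both in place of 3. Leaving out 1 library gave 1101 to 2187 genes. Of the members other than Ndn, Usp29 lost its call without KI male replicate 2, and Peg3 and Nap1l5 gained it without KI male replicate 3. Other paternally expressed genes ran from 1 (without WT female replicate 1 or 2 or KI female replicate 3) to 5 (without KI male replicate 3). Maternally expressed genes ran from 2 (without WT female replicate 1 or KI male replicate 2) to 4. Imprint maintenance genes ran from 0 to 1 (1 without KI female replicate 2). Neighbour genes ran from 1 (without WT male replicate 1, KI female replicate 2 or KI male replicate 4) to 8 (without KI male replicate 3). They were 5 without WT female replicate 4. Genes around Ndn ran from 4 to 18. Correlated pairs ran from 3 (without WT male replicate 2 or WT female replicate 1) to 10. They were 4 without KI female replicate 1 or 3, WT female replicate 4 or KI male replicate 3. Without 1 library the log2 fold change of Zrsr1 ran from -0.02 to 0.07, being -0.01 without KI male replicate 1 or WT female replicate 4 and -0.02 without KI female replicate 3, and that of Sgce from 0.00 to 0.05, on either side of 0. The replicate block called 1562 genes, 4 other paternally and 4 maternally expressed genes, 4 neighbour genes and 11 genes around Ndn, and left 7 correlated pairs. Usp29 kept its call in it. Libraries of different groups with the same replicate number correlated at -0.33 to 0.292 over 24 pairs (median 0.0339), of which 8 exceeded 0.1. Those with different numbers correlated at -0.308 to 0.453 over 72 pairs (median -0.0295), of which 19 exceeded 0.1. Such a comparison cannot tell whether the numbers mark libraries prepared together. The cause of these shifts was not tested. Ndn had 8 to 61 reads per library, which limits its precision.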
